A study of Mus musculus with 8 samples.

Results

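What still differed from healthy colonic mucosa in mice with colitis that had been given mesalazine was examined across all genes. The comparison sets 2 mesalazine libraries against 2 control libraries, 4 of the 8 libraries of the study, chosen by their labelled group. All 8 mice were wild-type male C57BL/6J animals, sampled on day 7, with 1 library of colonic mucosa RNA per animal. The mesalazine group drank 3% dextran sulfate sodium (DSS) and received mesalazine at 50 mg/kg by enema. The other groups used here as side values are the DSS model, which drank 3% DSS and had saline enemas, and the Kuiyangling group, which drank 3% DSS and was given an enema of a herbal formula at 10 g/kg. Control mice had no DSS and saline enemas, and all enemas had a volume of 0.2 ml. The sources used here state neither the age of the mice nor the hour of collection.

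DSS is a sulfated polysaccharide that damages the colonic epithelium, lets bacteria reach the tissue below it and draws in neutrophils, and it is a common model of ulcerative colitis. Mesalazine, 5-aminosalicylic acid, is a first-line drug for ulcerative colitis that acts on the mucosa from the lumen. In a healthy colon, absorptive colonocytes, goblet, tuft and enteroendocrine cells line the crypts, and inflammation changes both this lining and the stroma and immune cells under it.

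The count table held 17353 genes, and 13381 of them passed the filter on low counts and were tested. Library totals lay between 15560946 and 17843715 counts, so that 3 counts, taken as the floor, correspond to 0.149 to 0.212 CPM (counts scaled to the TMM-adjusted library size). Markers of colonic epithelium were high in every library, with a summed level of 24330 and 21150 CPM in mesalazine mice and 26090 and 22040 CPM in controls, and 0 of the 7 markers was missing. A library in each group stood apart from the rest. Mesalazine 1 correlated with the others at 0.940 on average (Spearman, across genes) and had 13.8% of its counts in ribosomal protein genes, against 3.62% to 7.24% in the other libraries. Control 2 correlated with the others at 0.945 and had more Cd74, the MHC class II invariant chain, with 1104 CPM against 53.8 CPM in control 1. The test calls a gene at a Benjamini-Hochberg adjusted p under 0.05 in edgeR's quasi-likelihood F test, and every adjusted p below is from that test unless another is named. The samples are bulk tissue, so fewer cells of a type and less RNA per cell cannot be told apart.

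In mesalazine mice 58 genes (0.433%) rose and 32 (0.239%) fell relative to controls, 90 of the 13381 tested, which is 0.673%. These shares stand behind the counts given for each list below. The smallest change called was 1.71 on the log2 scale. The median change of all tested genes was -0.014. Mesalazine and control values did not overlap for any of the 90, nor for 45.7% of all genes tested, and 2675 genes (20%) had an unadjusted p under 0.05. Genes of neutrophils and their chemokines, epithelial defence, matrix breakdown and the circadian clock were among those that rose. Those that fell included a mucosal pentraxin, 3 tuft cell genes, Hoxb13 and Hoxa7. Of the 90, 34 belonged to at least 1 of 39 gene lists, and 56 to none. The count rested on single libraries. It was 4 without mesalazine 1, 1 without control 2, 303 without control 1, 2717 without mesalazine 2, 37 without DSS model 1 and 35 without DSS model 2. DESeq2 called 982 of 17353 genes, 595 higher and 387 lower, with all 90 among them. All 90 kept their sign in every fit without 1 library.

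**Figure D1:**
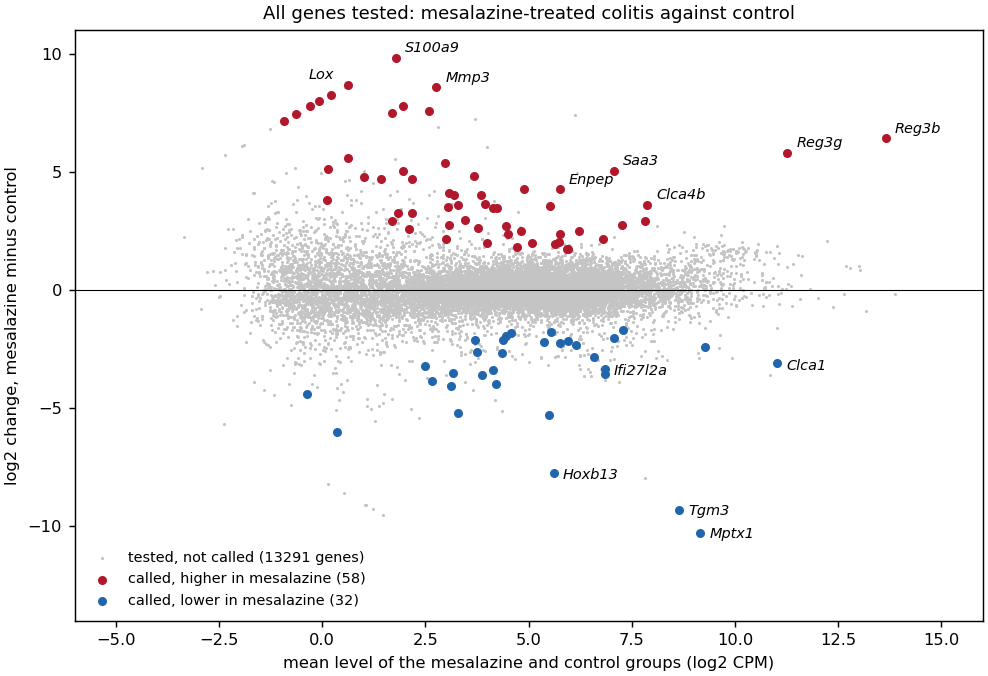
Log2 change between mesalazine and control (vertical axis) of the 13381 genes tested against the mean level of both groups in log2 CPM (horizontal axis), with 58 genes called higher in mesalazine in red, 32 called lower in blue and all others in grey. Reg3b and Reg3g stand at the high end of expression among the genes that rose, and Mptx1, Tgm3 and Hoxb13 show the largest decreases called. Changes of genes with 0 control counts are fitted values that depend on the model and are no bounds.

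S100a8, S100a9 and Retnlg, genes of neutrophils, and 3 chemokine genes that attract neutrophils rose. S100a8 and S100a9 encode the calprotectin subunits, the main cytosolic proteins of neutrophils. S100a9 stood at 10.9 and 2.86 CPM in mesalazine mice, against 0 in both controls, at least 78.8-fold higher than the floor of 3 counts over the control group (adjusted p = 0.0268). S100a8 stood at 9.27 and 3.56 CPM in mesalazine mice, against 0 and 0.0617 CPM in controls, which is 192 counts against 1 and a ratio of 224 (95% counting interval 39.6 to 8875.5; adjusted p = 0.0216). The groups did not overlap for either gene, and mesalazine 1 was the higher of the treated pair. Retnlg, a resistin-like protein of mouse neutrophils, had 1.70 and 1.58 CPM in mesalazine mice against 0 in both controls, at least 19.8-fold higher (adjusted p = 0.0312). Of 13 neutrophil markers tested these 3 rose and 0 fell, where 0.433% of all genes rose, and the list had a median log2 change of 3.57, or 2.70 with the 3 members at 0 in controls set to their bound. The 5 defining markers of neutrophils include S100a8, S100a9 and Retnlg, which made up most of their sum in mesalazine mice, so the sum adds little to those calls. The 5 summed to 22.2 and 8.76 CPM in mesalazine mice and to 0.149 and 0.432 CPM in controls, in which 4 and 3 of the 5 were at 0. All 20 listed neutrophil markers summed to 1073 and 189 CPM in mesalazine mice and to 202 and 317 CPM in controls, so that the groups overlapped. Most of that sum came from Ly6g and Cd177, which were not called. Ly6g had 843 and 113 CPM in mesalazine mice and 10.5 and 137 CPM in controls, and Cd177 had 191 and 62.6 CPM in mesalazine mice and 190 and 177 CPM in controls. Cxcr2, the receptor of the neutrophil chemokines, was too low to be tested, with 0 and 3 counts in mesalazine mice and 0 in both controls.

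Of 7 tested chemokines and growth factors that attract neutrophils, 3 rose and 0 fell, where 0.433% of all genes rose. The median change was 5.60, or 3.96 with the 3 members at 0 in controls set to their bound. Cxcl2, a ligand of Cxcr2, stood at 3.26 and 2.80 CPM in mesalazine mice, against 0.0495 and 0.0617 CPM in controls, a ratio of 54.7 from 2 control counts (95% counting interval 14.7 to 458.5; adjusted p = 0.0216). Cxcl3 had 3.40 and 1.23 CPM and Cxcl5 1.42 and 1.17 CPM in mesalazine mice, against 0 in both controls for each, at least 26.8-fold and 15.5-fold higher (adjusted p = 0.0328 and 0.0270). The treated animals lay close together for Cxcl2 and Cxcl5. Cxcl1, a further ligand of this receptor, was not called, with 2.34 and 1.23 CPM in mesalazine mice against 0.198 and 0.555 CPM in controls. In inflamed tissue these genes are known to be driven by the transcription factor NF-kB, and the promoter of Cxcl2 is shown because the gene was among the most changed chemokines. The 250 bases before its start, at chr5:90903649-90903898 on the plus strand (RefSeq, GRCm38.p6), hold 1 match to the NF-kB site searched (GGGA, any base, TTTCC), in capitals.
Cxcl2: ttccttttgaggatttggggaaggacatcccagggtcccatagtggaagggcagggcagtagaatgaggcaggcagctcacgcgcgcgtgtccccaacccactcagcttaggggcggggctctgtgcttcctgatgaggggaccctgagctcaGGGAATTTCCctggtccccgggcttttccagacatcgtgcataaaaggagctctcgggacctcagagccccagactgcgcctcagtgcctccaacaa
A match on either strand was present in the windows of both chemokines that had one, Cxcl2 and Cxcl3, and in 0.356% of all 32851 promoter windows. The match describes the letters of the window and not binding.

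Of 14 tested inflammatory cytokines and regulators 3 rose and 0 fell, where 0.433% of all genes rose. Il1rl1, the receptor of interleukin 33, had 10.5 and 6.83 CPM in mesalazine mice against 0.347 and 0.308 CPM in controls, a log2 change of 4.69 (SE 0.64; adjusted p = 0.0261). Its ligand Il33, an alarmin released by damaged cells, had 1.98 and 2.33 CPM in mesalazine mice against 0.0991 and 0 CPM in controls, a ratio of 39.6 (95% counting interval 10.5 to 333.5; adjusted p = 0.0312). Ligand and receptor were thus both above controls in each treated animal. Inhba, the activin A subunit, had 1.49 and 2.28 CPM in mesalazine mice against 0 in both controls, at least 23.3-fold higher (adjusted p = 0.0414). Il1b, the inflammasome cytokine, missed the threshold at 7.50 and 5.08 CPM in mesalazine mice against 0.595 and 1.17 CPM in controls (log2 change 2.84, SE 0.58; adjusted p = 0.0666), as did Ptgs2, the inducible cyclooxygenase, at 2.90 and 4.26 CPM against 0.297 and 0.247 CPM (3.68, SE 0.71; adjusted p = 0.0515). Tnf stood at 3.61 and 2.63 CPM in mesalazine mice and at 3.96 and 4.62 CPM in controls, a log2 change of -0.46 (SE 0.38; adjusted p = 0.517). Il6 had 7 and 9 counts in mesalazine mice against 0 and 2 in controls (adjusted p = 0.189). Of 24 NF-kB and inflammasome genes 0 were called by edgeR, and 4 had an unadjusted p under 0.05, where 20% of all genes did. DESeq2 called 1 of the 24, where it called 982 of 17353 genes. The calls of the 9 genes that rose in these neutrophil, chemokine and cytokine lists were all lost without mesalazine 1 (adjusted p = 0.0803 to 0.141) and without control 2 (0.155 to 0.223), 3 of them without DSS model 1 (up to 0.0563) or DSS model 2 (up to 0.0520) and 1 without control 1 (up to 0.0600). Length correction ended the call of Retnlg (0.0510). The log2 changes moved by over 1.5-fold for 4 of the 9. That of S100a8, at 7.51 with all libraries, was 6.67 without mesalazine 1 and 6.29 with length correction. It was 6.51 without control 1 and 9.75 without control 2. S100a9, at 9.84 with all libraries, was at 8.62 without mesalazine 1, 10.51 without mesalazine 2 and 9.20 with length correction. Cxcl3 went from 8.27 to 7.40 without mesalazine 1. Il33, at 5.14 with all libraries, was at 8.13 without control 1 and 4.35 without control 2. S100a9 and Cxcl3 had 0 counts in both controls. The control left had 0 counts of S100a8 without control 2 and of Il33 without control 1. Log2 changes against 0 counts are fitted values that depend on the model and are no bounds.

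**Figure D2:**
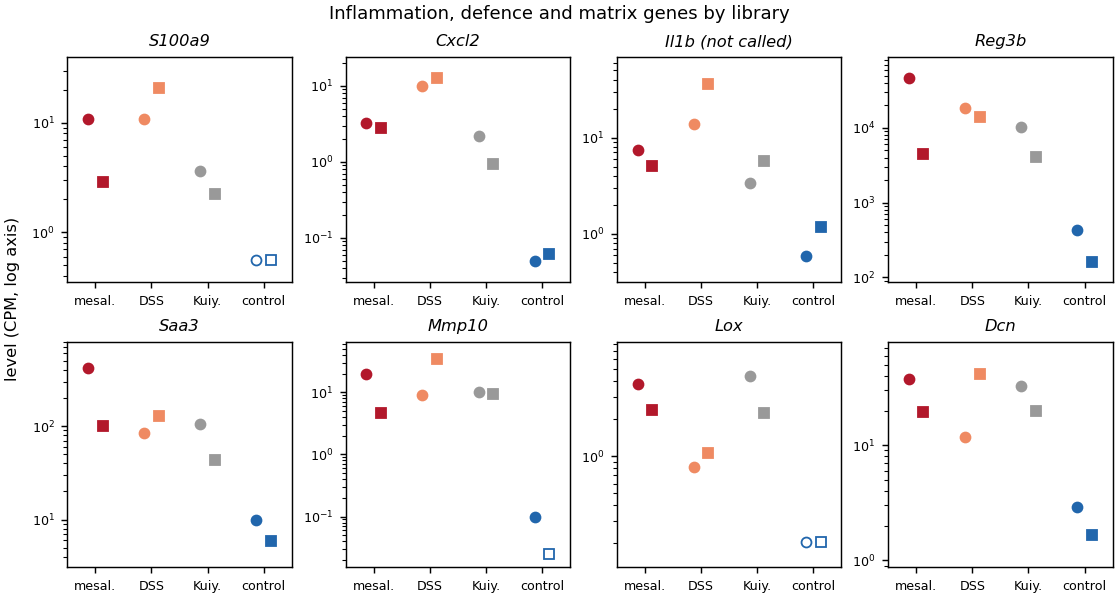
Level in CPM on a log axis (vertical) of 8 genes of inflammation, defence and matrix in each library of the mesalazine, DSS model, Kuiyangling and control groups (horizontal), with circles for replicate 1, squares for replicate 2 and open symbols at the bottom for libraries with 0 counts. Both mesalazine animals lie above both controls for every gene drawn, and mesalazine 1 is above mesalazine 2 in each; Il1b did not pass the test.

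Epithelial defence genes included the most abundant transcripts that rose. Reg3b and Reg3g encode C-type lectins that bind bacteria at the mucosal surface. Reg3b stood at 46439 and 4461.5 CPM in mesalazine mice, against 428 and 162 CPM in controls, a log2 change of 6.43 (SE 1.12; adjusted p = 0.0414). Reg3g stood at 8502 and 1177 CPM in mesalazine mice, against 114 and 57.4 CPM in controls (5.82, SE 0.93; adjusted p = 0.0312). Mesalazine 1 was far above mesalazine 2 for both genes, and Reg3b was its most abundant transcript with 3.87% of all counts. The less abundant Reg3a had 8.49 and 1.93 CPM in mesalazine mice against 0.149 and 0.247 CPM in controls (4.69, SE 0.87; adjusted p = 0.0469), and these near relatives may share reads. Saa3, an acute-phase serum amyloid A protein made in the inflamed mouse colon, had 421 and 101 CPM in mesalazine mice against 9.81 and 5.92 CPM in controls (5.05, SE 0.73; adjusted p = 0.0268). Outside the lists, the serine protease gene Prss22 had 7.15 and 8.29 CPM in mesalazine mice against 0.0495 and 0 CPM in controls, 243 counts against 1 and a ratio of 283 (95% counting interval 50.3 to 11221; adjusted p = 0.00936). The treated animals differed little for Prss22. Defb37, a beta-defensin gene, had 9.84 and 4.90 CPM in mesalazine mice against 1.34 and 1.11 CPM in controls (2.58, SE 0.48; adjusted p = 0.0469). Lcn2, which withholds iron from bacteria, was not called, with 58.4 and 3.97 CPM in mesalazine mice against 0.644 and 0.247 CPM in controls (6.06, SE 1.23; adjusted p = 0.0661). Of 26 antimicrobial and wound genes 4 rose and 0 fell, where 0.433% of all genes rose. Their median was 0.04, since Ang4 and Wfdc2 among others had estimates below 0. Without mesalazine 1 the changes of Reg3b, Reg3g, Reg3a and Saa3 were 3.92, 3.78, 3.26 and 3.68, and Prss22 alone of these 6 genes kept its call (adjusted p = 0.0496, up to 0.227 for the others). The calls of all 6 were lost without control 2 (0.0981 to 0.295), those of 3 without control 1 (up to 0.0991), of 4 without DSS model 1 (up to 0.0840) or DSS model 2 (up to 0.0855) and of 1 without either Kuiyangling library (up to 0.0585). With gene length corrected for, the calls of Reg3a and Defb37 were lost (0.0510 and 0.137), with Defb37 at 1.25, Reg3b at 5.26, Reg3g at 4.70, Reg3a at 3.75 and Saa3 at 3.76. Without mesalazine 2 the changes of Reg3b, Reg3g, Reg3a and Saa3 were 7.29, 6.63, 5.40 and 5.73. Without control 1 Reg3b was at 7.27. Prss22, at 7.80 with all libraries, was at 9.97 without control 1, a value fitted against 0 counts in control 2 and no bound. It was at 7.08 without control 2.

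Enzymes that break down and cross-link the extracellular matrix were among the genes that rose. Of 25 matrix remodelling genes tested 5 rose and 0 fell, where 0.433% of all genes rose. Of the 25, 18 had an unadjusted p under 0.05 where 20% of all genes did, and the median change was 2.14. Lox, which cross-links collagen and elastin, had 3.82 and 2.33 CPM in mesalazine mice against 0 in both controls, at least 36.5-fold higher (adjusted p = 0.0261). The stromelysin genes were nearly absent from healthy mucosa. Mmp10 had 19.4 and 4.61 CPM in mesalazine mice against 0.0991 and 0 CPM in controls, a ratio of 206 (95% counting interval 56.5 to 1703.6; adjusted p = 0.0312), and Mmp3 had 25.0 and 2.04 CPM against 0.0495 and 0 CPM, a ratio of 452 (80.6 to 17890.0; adjusted p = 0.0471). Mmp13, an interstitial collagenase, had 22.7 and 9.11 CPM in mesalazine mice against 0.991 and 0.802 CPM in controls (log2 change 4.13, SE 0.73; adjusted p = 0.0414). Mmp7, matrilysin, had 44.7 and 9.46 CPM in mesalazine mice against 2.13 and 1.11 CPM in controls (4.04, SE 0.70; adjusted p = 0.0414). For each of these 5 genes mesalazine 1 was the higher treated library and no treated library reached the control range.

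Of 16 fibroblast and collagen genes 1 rose and 0 fell, where 0.433% of all genes rose. Of the 16, 13 had an unadjusted p under 0.05, where 20% of all genes did, and the median was 2.10. Dcn, the collagen-binding proteoglycan decorin, had 37.7 and 19.6 CPM in mesalazine mice against 2.92 and 1.66 CPM in controls (3.62, SE 0.64; adjusted p = 0.0414). Outside the lists and named after their values were seen, Igfbp5 and Igfbp4, which bind insulin-like growth factors, were higher by 4.83 (SE 0.68; adjusted p = 0.0268) and 2.98 (SE 0.51; adjusted p = 0.0406), the collagen genes Col18a1 and Col5a2 by 3.51 (SE 0.56; adjusted p = 0.0312) and 2.92 (SE 0.47; adjusted p = 0.0318), and Tgfbi, a secreted adhesion protein induced by TGF-beta, by 2.05 (SE 0.37; adjusted p = 0.0430). The 5 defining fibroblast markers summed to 110.0 and 67.1 CPM in mesalazine mice against 23.7 and 7.34 CPM in controls, none at 0, all 19 listed to 212 and 126 CPM against 74.9 and 35.7 CPM, and their part in the matrix changes was not tested. The 5 defining smooth muscle markers summed to 27.6 and 8.52 CPM in mesalazine mice against 65.5 and 16.8 CPM in controls. All 16 listed summed to 467 and 512 CPM against 567 and 505 CPM, and the groups overlapped in both sums. Without mesalazine 1 the calls of all 11 matrix and stromal genes named were lost (adjusted p = 0.0902 to 0.213), with Mmp3 at 5.89, Mmp7 at 2.53, Mmp10 at 6.22, Mmp13 at 3.33, Igfbp5 at 3.75, Col18a1 at 2.69 and Igfbp4 at 2.35. Without mesalazine 2 Mmp3 was at 9.48, Mmp7 at 4.76, Mmp10 at 8.29 and Igfbp5 at 5.44. Without control 1 Mmp3 was at 10.76, Mmp10 at 10.59, Igfbp5 at 5.79 and Igfbp4 at 3.59, and without control 2 Mmp3 was at 7.88 and Mmp10 at 6.81. All 11 were lost without control 2 (0.163 to 0.317), and 5 each without control 1 (up to 0.0917), DSS model 1 (up to 0.0754) or DSS model 2 (up to 0.0759), while every one kept its direction in these fits. Length correction ended the calls of Mmp3 and Mmp13 (up to 0.0526) and put Mmp7 at 3.28.

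Of 30 absorption and transport genes 2 rose and 0 fell, where 0.433% of all genes rose, and the list median was -0.53. Clca4b, of the family of chloride channel accessory proteins, stood at 503 and 366 CPM in mesalazine mice, against 34.2 and 36.5 CPM in controls (3.62, SE 0.38; adjusted p = 0.0105), the groups being far apart and tight within. Guca2b, uroguanylin, which drives fluid secretion, had 133 and 47.5 CPM in mesalazine mice against 16.3 and 18.3 CPM in controls (2.38, SE 0.44; adjusted p = 0.0471). Not called were Aqp8, a water channel, the anion exchanger gene Slc26a3 and the carbonic anhydrase gene Car1. Aqp8 had 83.4 and 399 CPM in mesalazine mice against 691 and 1974.8 CPM in controls (-2.47, SE 0.69, adjusted p = 0.107). Slc26a3 was at -1.10 (SE 0.53, adjusted p = 0.279) and Car1 at 1.01 (SE 0.45, adjusted p = 0.248). For Slc26a3 the groups overlapped, with 186 and 529 CPM in mesalazine mice and 501 and 1037.9 CPM in controls.

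A group of surface enzymes and transporters that was put together after the values were seen, Enpep, Ggt1, Amn and Slc51a, rose by 2.39 to 4.26 on the log2 scale (adjusted p = 0.0268 to 0.0414). Enpep, glutamyl aminopeptidase, stood at 83.9 and 122 CPM in mesalazine mice, against 8.52 and 2.10 CPM in controls (4.26, SE 0.75; adjusted p = 0.0414). Slc51a, a subunit of the basolateral bile acid exporter, stood at 498 and 305 CPM in mesalazine mice, against 64.5 and 41.6 CPM in controls (2.92, SE 0.47; adjusted p = 0.0312). The treated animals were well above both controls for Enpep and Slc51a, and the DSS model had 5.60 and 24.3 CPM of Enpep and 136 and 180 CPM of Slc51a. Mal, a protein of apical sorting, had 250 and 283 CPM in mesalazine mice against 47.6 and 32.3 CPM in controls (2.74, SE 0.35; adjusted p = 0.0219). Brush border enzymes of this kind are most abundant in the small intestine, and 4 small intestine markers (Apoa1, Fabp6, Alpi and Sis) summed to 201 and 456 CPM in mesalazine mice against 77.5 and 71.2 CPM in controls. Their part in these changes was not tested. Without mesalazine 1, Clca4b alone of these 7 colonocyte and brush border genes kept its call (adjusted p = 0.0496, up to 0.179 for the others), and Guca2b was at 1.46. Without control 2 all 7 calls were lost (0.155 to 0.295), 3 without DSS model 1 (up to 0.0880) or DSS model 2 (up to 0.0874), and 1 without control 1 (0.0950) or either Kuiyangling library (up to 0.0583). With length correction Guca2b and Amn lost the call (0.0510 and 0.0588), Guca2b at 1.28. The change of Enpep was 5.60 without control 1 and 3.59 without control 2, and that of Ggt1 was 3.34 without control 1.

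**Figure D3:**
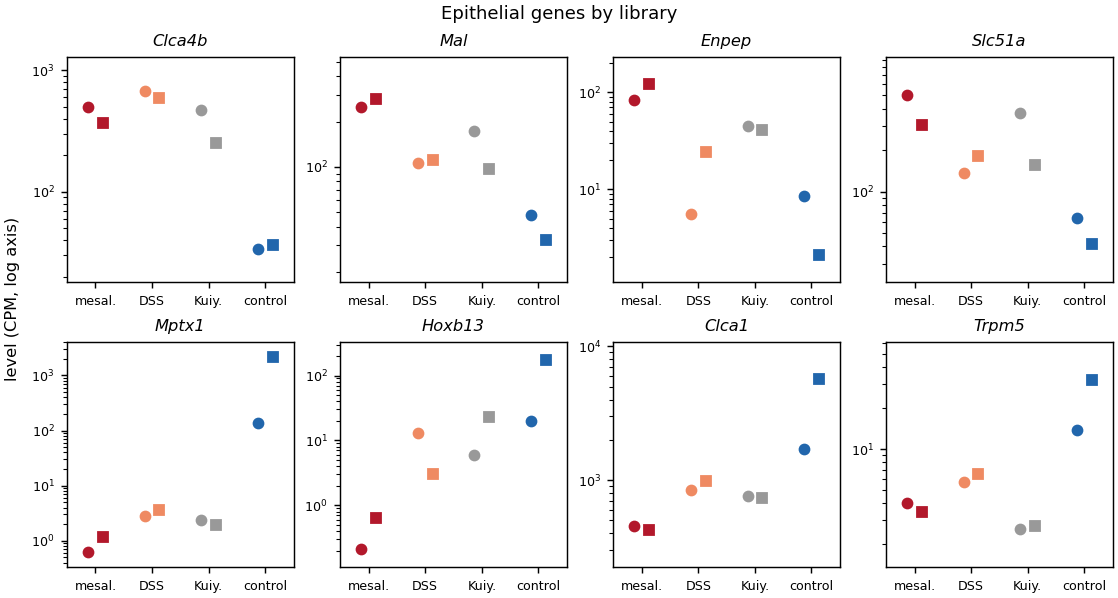
Level in CPM on a log axis (vertical) of 8 epithelial genes in each library of the mesalazine, DSS model, Kuiyangling and control groups (horizontal), with circles for replicate 1 and squares for replicate 2. Clca4b, Mal, Enpep and Slc51a are higher and Mptx1, Hoxb13, Clca1 and Trpm5 lower in both mesalazine animals than in both controls, and control 2 is the highest library of all for the last 4.

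Enzymes of oxidation and lipid handling were a further group put together after the values were seen. Cyp2d26, Cyp3a25 and Cyp4v3, which are cytochrome P450 genes, and Adh6a, Akr1c18, Hsd17b13 and Acaa1b rose by at least 1.96 on the log2 scale (adjusted p = 0.0268 to 0.0430). Acaa1b, a peroxisomal thiolase of fatty acid oxidation, had 53.9 and 41.6 CPM in mesalazine mice against 9.91 and 7.03 CPM in controls (2.49, SE 0.35; adjusted p = 0.0268). Cyp2d26 had 134 and 230 CPM in mesalazine mice against 48.2 and 33.2 CPM in controls (2.16, SE 0.35; adjusted p = 0.0318). In the lists such genes come from, 1 of 25 PPAR target and fatty acid oxidation genes was called (Acaa1b, list median -0.01), where 0.433% of all genes rose. Of 31 xenobiotic metabolism genes 0 were called by edgeR, with a median of 0.45. In that list 10 had an unadjusted p under 0.05, where 20% of all genes did. DESeq2 called 1 of the 31, where it called 982 of 17353 genes. Pparg, a nuclear receptor through which mesalazine has been proposed to act, stood at 138 and 210 CPM in mesalazine mice and at 136 and 74.9 CPM in controls (0.72, SE 0.34; adjusted p = 0.272). Nat2, an arylamine N-acetyltransferase, the kind of enzyme that inactivates mesalazine in the mucosa, stood at 33.9 and 57.1 CPM in mesalazine mice and at 43.8 and 40.8 CPM in controls (0.11, SE 0.29; adjusted p = 0.866). The groups overlapped for Nat2. For Pparg both treated libraries lay above both controls, as for 23.6% of all genes tested, though mesalazine 1 was barely above control 1. Depp1, a gene induced by fasting and FoxO factors, had 23.3 and 11.3 CPM in mesalazine mice against 1.29 and 0.802 CPM in controls (4.02, SE 0.51; adjusted p = 0.0216). It was the 1 gene called of 15 glucocorticoid and fasting response genes, where 0.673% of all genes were called. The DSS model had 1.38 and 0.928 CPM of Depp1. Arg2, the mitochondrial arginase, had 52.6 and 55.0 CPM in mesalazine mice against 13.1 and 13.8 CPM in controls, a mean of 53.8 ± 1.74 CPM against 13.4 ± 0.52 CPM (SD, n = 2 each; edgeR adjusted p = 0.0221). Of the 9 genes that rose here, Akr1c18 alone kept its call without mesalazine 1 (0.0496, up to 0.180 for the others), 0 did without control 2 (0.173 to 0.267), 5 did without DSS model 1 (lost calls up to 0.0919) or DSS model 2 (up to 0.0884), and 8 did without control 1 (lost call 0.0733) or either Kuiyangling library (up to 0.0722). Length correction ended the calls of Cyp2d26, Cyp3a25 and Adh6a (up to 0.0681). Akr1c18, at 4.26 with all libraries, was at 2.86 without mesalazine 1, 4.96 without mesalazine 2 and 3.57 with length correction, Depp1 was at 3.41 without mesalazine 1, and Cyp3a25, at 3.25 with all libraries, was at 4.20 without control 1.

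Mptx1 and Tgm3 had the largest decreases called. Mptx1, a mucosal pentraxin secreted by goblet cells, stood at 0.637 and 1.17 CPM in mesalazine mice, against 134 and 2151 CPM in controls (-10.27, SE 1.30; adjusted p = 0.0216). Tgm3, a transglutaminase, stood at 0.849 and 1.63 CPM in mesalazine mice, against 116 and 1479 CPM in controls (-9.30, SE 1.48; adjusted p = 0.0312). Both genes were low in the 2 treated animals, and the controls differed widely from each other. Of 22 goblet cell genes 2 fell and 0 rose, with 14 estimates below 0 and 8 above, where 0.239% of all genes fell. The second is Clca1, which processes the mucus gel, at 452 and 427 CPM in mesalazine mice against 1719.8 and 5697 CPM in controls (-3.08, SE 0.51; adjusted p = 0.0365). Muc2, the mucin that forms that gel, was not called at 9067 and 3950.3 CPM in mesalazine mice against 12855 and 10998 CPM in controls (-0.87, SE 0.45; adjusted p = 0.311). Outside the goblet list, Muc4, a transmembrane mucin, was at -1.71 (SE 0.31; adjusted p = 0.0430) and Nxpe4, a colonocyte gene, at -5.31 (SE 0.88; adjusted p = 0.0365). Insl5, the hormone of distal colonic L cells, had 2.12 and 2.28 CPM in mesalazine mice against 16.4 and 37.7 CPM in controls (-3.61, SE 0.65; adjusted p = 0.0430), and was the 1 gene called of 19 enteroendocrine genes, of which 13 had estimates above 0, with a median of 0.24.

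Position along the colon was followed with Hox genes, which keep the positional identity of the gut epithelium. Hoxb13, the most posterior marker, had 0.212 and 0.642 CPM in mesalazine mice against 19.9 and 175 CPM in controls (-7.76, SE 1.35; adjusted p = 0.0414). Hoxa7 had 8.07 and 9.81 CPM in mesalazine mice against 38.3 and 30.8 CPM in controls (-1.95, SE 0.36; adjusted p = 0.0463). Of 14 colon position genes tested, 1 fell (Hoxb13) and 0 rose, where 0.239% of all genes fell. Hoxa7 was not in that list and was named after its value was seen. Hoxa9, Hoxa10, Hoxa11 and Hoxa13 had estimates of -2.30, -1.83, -1.66 and -3.05 and were not called. Both treated animals lay below both controls for each of them, as for 22.1% of all genes tested. Of the 14 position genes, 6 lay below controls in this way and 3 lay above. Hoxb6 was at 0.67, Hoxb8 at 0.77 and Hoxd8 at 1.05, none of them called. The part that the sampled stretch of colon has in the changes of Mptx1, Tgm3, Insl5 and the other genes of this kind was not tested. Without control 2, Mptx1 was at -7.19 and kept its call (adjusted p = 0.000575), while the other 7 of these 8 genes lost it (up to 0.260), with Tgm3 at -6.52, Hoxb13 at -5.48, Clca1 at -1.97, Insl5 at -2.89 and Nxpe4 at -3.58. The median of the 14 colon position genes was -0.49, and 0.0084 without control 2. Without mesalazine 1 all 8 calls were lost (0.141 to 0.272), 7 without DSS model 1 (up to 0.0931) or DSS model 2 (up to 0.0924), 2 without control 1 (up to 0.0755), in which fit Mptx1 was at -11.20, Tgm3 at -10.20, Hoxb13 at -8.62, Clca1 at -3.71 and Nxpe4 at -6.09, and 1 without either Kuiyangling library (up to 0.0741). Nxpe4 was at -4.68 without mesalazine 1 and -6.57 without mesalazine 2, in which fit Hoxb13 was at -8.79. Length correction ended the calls of Hoxb13, Hoxa7 and Insl5 (0.0510 to 0.0526) and put Mptx1 at -10.93.

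Tuft cells are chemosensory cells of the epithelium that drive type 2 responses. Of 16 tuft cell genes 3 fell and 0 rose, where 0.239% of all genes fell. All 16 estimates were below 0, as were those of 6812 of all 13381 genes tested, and the median was -2.03. Trpm5, the cation channel of tuft cell taste signalling, had 4.03 and 3.44 CPM in mesalazine mice against 13.9 and 32.4 CPM in controls (-2.63, SE 0.43; adjusted p = 0.0329). Alox5, which makes leukotrienes, had 0.991 and 1.17 CPM in mesalazine mice against 5.55 and 14.9 CPM in controls (-3.23, SE 0.57; adjusted p = 0.0414). Dclk1, a kinase used as a tuft cell marker, had 3.54 and 6.13 CPM in mesalazine mice against 15.5 and 26.9 CPM in controls (-2.12, SE 0.40; adjusted p = 0.0493). No treated library reached the control range for these 3 genes, while Pou2f3, the factor that specifies tuft cells, was at -2.02 (adjusted p = 0.145). The 3 calls were lost without mesalazine 1 (0.165 to 0.230), without control 2 (0.219 to 0.295, with Trpm5 at -1.89 and Alox5 at -2.35), and without either DSS model library (0.0519 to 0.0848), and that of Dclk1 without either Kuiyangling library (up to 0.0684). Length correction ended the calls of Trpm5 and Dclk1 (0.0510 and 0.0588).

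Dbp, a gene of the circadian clock, had the smallest p of the comparison. The clock is a feedback loop in which Arntl (Bmal1) and its partner Clock switch on genes through E-boxes, among them the PAR bZIP factors Dbp and Tef and the repressor Ciart, so that Arntl and these outputs peak at opposite times of day. Dbp stood at 32.3 and 31.9 CPM in mesalazine mice, against 2.87 and 2.90 CPM in controls, a log2 change of 3.47 (SE 0.32; adjusted p = 0.00936). Ciart stood at 7.50 and 5.31 CPM in mesalazine mice, against 0.545 and 0.802 CPM in controls (3.25, SE 0.51; adjusted p = 0.0312). Tef stood at 89.8 and 102 CPM in mesalazine mice, against 25.7 and 31.1 CPM in controls (1.75, SE 0.29; adjusted p = 0.0334). These outputs were higher in both treated animals with little spread within the groups. Arntl itself stood at 12.5 and 17.5 CPM in mesalazine mice, against 48.7 and 88.1 CPM in controls (-2.19, SE 0.35; adjusted p = 0.0312). Of 17 clock genes 3 rose and 1 fell, where 0.433% and 0.239% of all genes did. Not called were Npas2, a partner of Arntl, at -1.86 (adjusted p = 0.0991) and Nr1d1, the repressor of Arntl, at 1.65 (adjusted p = 0.0821). Set side by side, the Kuiyangling animals had 37.5 and 26.1 CPM of Dbp and 88.0 and 79.4 CPM of Tef, and the DSS model had 6.98 and 9.41 CPM of Dbp and 22.8 and 34.2 CPM of Tef. The labels give the day and not the hour at which the groups were collected, so treatment group and hour cannot be told apart for these genes.

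The promoter of Ciart is shown because it holds the site through which the clock acts. The 250 bases before its start, at chr3:95882229-95882478 on the minus strand (RefSeq, GRCm38.p6), hold 3 matches to the E-box CACGTG, which reads the same on both strands, in capitals.
Ciart: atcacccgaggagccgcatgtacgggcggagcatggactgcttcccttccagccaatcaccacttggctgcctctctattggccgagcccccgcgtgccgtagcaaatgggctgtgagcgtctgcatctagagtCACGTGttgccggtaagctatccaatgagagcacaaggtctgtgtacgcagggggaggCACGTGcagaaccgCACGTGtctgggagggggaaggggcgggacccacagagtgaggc
Matches were found in the windows of 2 of the 4 clock genes called, Ciart and Tef, and not in those of Dbp and Arntl, and in 6.02% of all 32851 windows. Without mesalazine 1, Dbp kept its call (adjusted p = 0.0496) and Ciart, Tef and Arntl lost it (up to 0.165). All 4 calls were lost without control 2 (0.0981 to 0.219), those of Tef and Arntl without DSS model 1 or DSS model 2 (up to 0.0522), 2 without control 1 (up to 0.0729), and 1 without either Kuiyangling library (up to 0.0573), and length correction ended that of Arntl (0.0510). The log2 changes of the 4 genes stayed within 1.5-fold of the values above in each of these fits.

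Of 26 interferon-stimulated genes of the list, all estimates were below 0 with a median of -2.52, where 6812 of all 13381 genes tested had one below 0. In that list edgeR called 0, and 24 had an unadjusted p under 0.05, where 8.27% of all genes tested had one with an estimate below 0. DESeq2 called 15 of the list, all lower, where it called 387 of 17353 genes lower. Oas2, an antiviral oligoadenylate synthetase and the member with the smallest p, stood at 13.4 and 55.6 CPM in mesalazine mice, against 213 and 470 CPM in controls (-3.30, SE 0.72; adjusted p = 0.0767). Outside the list 7 genes that respond to interferon or belong to families that do were called, a set put together after the values were seen: Ifi27l2a, Oas1g, Phf11a, Phf11b, Slfn1, Slfn2 and Ly6e fell by 2.02 to 5.19 (adjusted p = 0.0268 to 0.0430). Ifi27l2a had 18.2 and 22.6 CPM in mesalazine mice against 93.9 and 324 CPM in controls (-3.35, SE 0.52; adjusted p = 0.0312). Slfn2, of the schlafen family that restrains immune cell proliferation in mice, had 12.3 and 24.5 CPM in mesalazine mice against 110.0 and 318 CPM in controls (-3.54, SE 0.60; adjusted p = 0.0406). Phf11b had 18.5 and 20.0 CPM in mesalazine mice against 94.6 and 85.2 CPM in controls (-2.22, SE 0.32; adjusted p = 0.0268), and the DSS model 82.0 and 74.9 CPM. The treated animals lay below both controls for all 7, and Phf11b alone of these 3 had controls close to each other. Phf11a and Phf11b, and Slfn1 and Slfn2, are near relatives that may share reads.

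The interferon response element is the site through which interferon signals reach their genes, and the promoter of Oas1g is shown as an example among the genes that fell. Oas1g had 47.6 and 58.1 CPM in mesalazine mice against 171 and 257 CPM in controls (-2.02, SE 0.36; adjusted p = 0.0425). Its 250 bases before the start, at chr5:120887614-120887863 on the minus strand (RefSeq, GRCm38.p6), hold 2 overlapping matches to the element's core searched (GAAA, any 2 bases, GAAA), in capitals.
Oas1g: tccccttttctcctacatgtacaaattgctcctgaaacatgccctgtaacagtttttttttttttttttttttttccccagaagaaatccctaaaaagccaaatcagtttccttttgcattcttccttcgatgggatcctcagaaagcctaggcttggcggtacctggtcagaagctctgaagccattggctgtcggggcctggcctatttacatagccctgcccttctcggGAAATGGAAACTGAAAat
On either strand the core was present in 3 of the 5 genes called that had a window (Oas1g, Phf11a and Phf11b), in 12 of the 20 listed interferon-stimulated genes that had one, and in 2.98% of all windows. The calls of the 7 genes were lost without mesalazine 1 (adjusted p = 0.122 to 0.260) and without control 2 (0.155 to 0.282), where Ifi27l2a was at -2.20, Slfn1 at -3.27 and Slfn2 at -2.57. Without control 1 these were at -4.0, -6.01 and -4.12, and Phf11a, at -3.85 with all libraries, was at -4.56 without mesalazine 2. The calls were lost for 5 without DSS model 1 (up to 0.0695) or DSS model 2 (up to 0.0698) and for 1 without either Kuiyangling library (up to 0.0576), and length correction ended the call of Phf11a (0.0510). The median of the listed genes was -1.98 without mesalazine 1 and -1.55 without control 2.

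**Figure D4:**
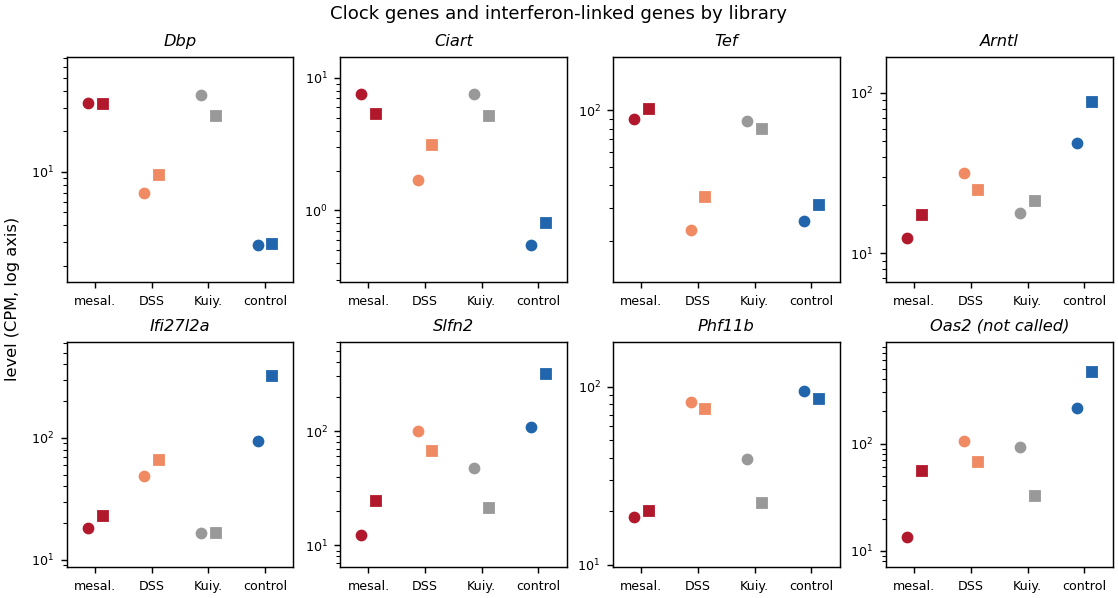
Level in CPM on a log axis (vertical) of 4 clock genes and 4 interferon-linked genes in each library of the mesalazine, DSS model, Kuiyangling and control groups (horizontal), with circles for replicate 1 and squares for replicate 2. Dbp, Ciart and Tef are higher and the other 5 genes lower in both mesalazine animals than in both controls; Oas2 did not pass the test.

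The lists of MHC class II genes and of immune cells other than neutrophils held 0 genes called by edgeR. Over all genes, 20% had an unadjusted p under 0.05, and DESeq2 called 595 of 17353 higher and 387 lower. These shares stand beside the counts of this paragraph. The 9 MHC class II genes tested had a median of -2.43 with 6 at an unadjusted p under 0.05 and 0 called by DESeq2, but Cd74 stood at 70.4 and 76.8 CPM in mesalazine mice against 53.8 and 1104 CPM in controls, so that the groups overlapped, and the median was 0.74 without control 2. The same library decided the direction for B and plasma cell markers, with a median of -2.52 and 0.97 without control 2, and for T and NK cell markers, with -0.42 and 1.13. The 6 eosinophil and mast cell markers tested had a median of -0.53, or 1.94 without control 2, with 3 at an unadjusted p under 0.05 and, by DESeq2, 1 called higher and 2 lower. DESeq2 called 2 B and plasma cell markers lower and 0 T and NK cell markers. Of 18 monocyte and macrophage markers 0 were called, 5 had an unadjusted p under 0.05 and DESeq2 called 2 higher and 1 lower. Erythroid genes were in the same direction in all 5 members tested, with a median of 3.76, all 5 at an unadjusted p under 0.05 and all 5 called higher by DESeq2. Hbb-bs, the adult beta globin, had 38.1 and 28.8 CPM in mesalazine mice against 3.96 and 0.863 CPM in controls (3.76, SE 0.72; adjusted p = 0.0515).

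Of 82 ribosomal protein genes 0 were called by edgeR and 80 had an unadjusted p under 0.05, where 20% of all genes did. DESeq2 called 76 of them higher, where it called 595 of 17353 genes higher. Their median was 1.64, or 0.70 without mesalazine 1. Of 76 oxidative phosphorylation subunits 0 were called, 55 had an unadjusted p under 0.05, and DESeq2 called 26 higher, against the same shares over all genes. Their median was 0.98, or 0.32 without mesalazine 1. The ribosomal protein share was 13.8% and 6.17% of counts in mesalazine mice and 4.35% and 3.62% in controls. The level of a gene relative to the other libraries correlated with its length at -0.534 in mesalazine 1 and 0.284 in mesalazine 2 (Spearman). In controls 1 and 2 this correlation was 0.444 and 0.267. With length correction Rps27a, the ribosomal protein gene with the smallest p, went from 2.33 to 1.43 (adjusted p = 0.108). Atp5l, its counterpart among the subunits, went from 1.43 to 0.52 (adjusted p = 0.237). Cell cycle genes (28 tested, 0 called, 2 at an unadjusted p under 0.05, 0 by DESeq2) had a median of -0.15. Stem cell and Wnt target genes (20 tested, 0 called, 2 at an unadjusted p under 0.05, 0 by DESeq2) had one of -0.21. Over all genes tested, 20% had such a p. Lgr5, the stem cell receptor, stood at 5.45 and 6.42 CPM in mesalazine mice and at 5.30 and 3.08 CPM in controls (0.50, SE 0.72, adjusted p = 0.734). Of the 39 lists, 15 held a called member and 24 held none.

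**Figure D5:**
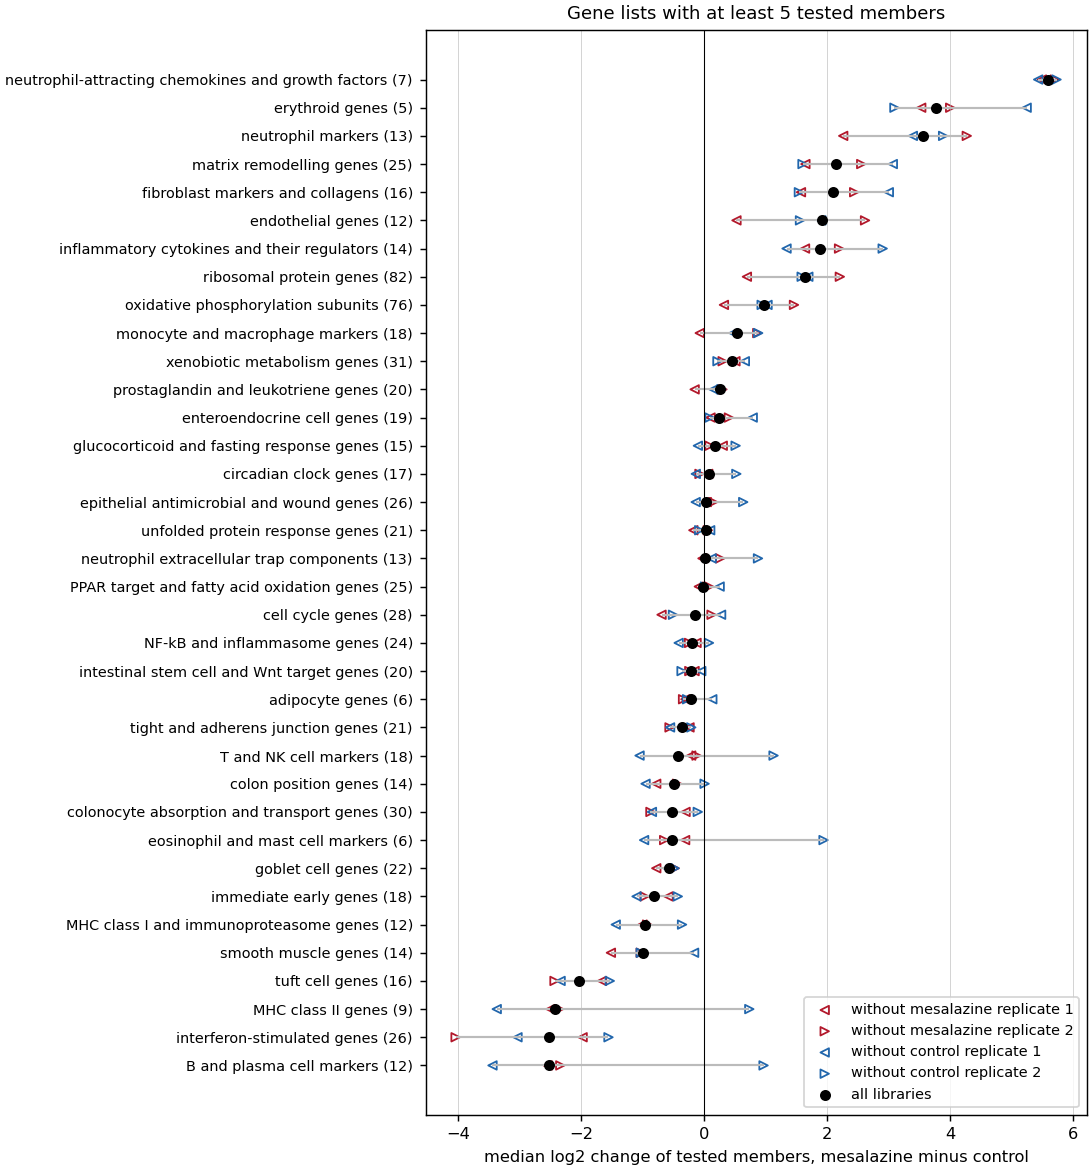
Median log2 change between mesalazine and control (horizontal axis) of the tested members of 36 gene lists with at least 5 tested members (vertical axis, number tested in brackets), with all libraries in black and without 1 mesalazine or control library as open triangles. The MHC class II, B cell, T cell and eosinophil and mast cell lists are among those that change sign without control 2, while the neutrophil, chemokine, matrix, interferon-stimulated and tuft cell lists keep theirs.

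Relative to the DSS model, mesalazine mice had 0 genes called by edgeR among 13381 (smallest adjusted p = 0.203), with 735 at an unadjusted p under 0.05 and 91 called by DESeq2. Both comparisons share the mesalazine libraries. Values of genes that differed from controls can be set side by side. Cxcl2 had 3.26 and 2.80 CPM in mesalazine mice, 10.1 and 12.5 CPM in the DSS model, and 0.0495 and 0.0617 CPM in controls (mesalazine minus DSS model -1.90, SE 0.45; adjusted p = 0.503). Clca4b had 503 and 366 CPM in mesalazine mice and 678 and 589 CPM in the DSS model, and the mesalazine values thus lay nearer to the model than to controls. Tgm2, transglutaminase 2, was called in neither comparison, with 80.1 and 78.9 CPM in mesalazine mice, 168 and 189 CPM in the DSS model and 28.3 and 23.6 CPM in controls. Dbp, Tef and Depp1 lay further from controls in mesalazine mice than in the DSS model, with changes between mesalazine and the model of 1.97, 1.75 and 3.89 (SE 0.30, 0.29 and 0.51; adjusted p = 0.203 for each). Phf11b was at -2.03 against the model (SE 0.31; adjusted p = 0.203).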

How the data were processed

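RNA of colonic mucosa was extracted and made into stranded mRNA libraries with a TruSeq kit, per the labels' protocols, and the RNA integrity number was 7 or more. The authors deposited whole read counts per gene and FPKM values made from them, and Trimmomatic and HISAT2 are named in the submitters' processing notes. The sources used here name no read counter, strand setting or genome build, and reads of overlapping or near-identical genes may be split between them.

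Of the 17353 genes, 13381 passed filterByExpr and were fitted in edgeR 4.0.16 (R 4.3.3), with TMM scaling and a mean per group over all 8 libraries (2 animals a group). Genes were tested by the quasi-likelihood F test, and those with a Benjamini-Hochberg adjusted p under 0.05 were called. The common biological coefficient of variation was 0.287. Folds against 0 counts use 3 counts over the group as the floor. Such floors and the exact 95% intervals cover counting error only. Alternatives were DESeq2 1.42.0 on unfiltered counts, limma 3.58.1 on log2 FPKM, length correction by loess, a replicate block and fits without each library.

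Named genes were the 12 highest and 12 lowest changes called with at least 5 CPM, up to 3 called members per list (otherwise the member with the smallest p) and a panel of 20 genes. Other genes named were chosen after their values were seen. The comparison, the lists and the panel were chosen with earlier results of these data known. Some genes are not analysed here.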

Additional observations from a re-analysis of the deposited data

How the results depend on the processing

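The direction of all 90 called genes was the same in every alternative run, and the number called was not. It was 89 with DESeq2 size factors in edgeR, 67 with length correction (61 of the 90 kept) and 83 with length correction and the replicate block, all within 1.5 times of 90. It was 982 in DESeq2, 1090 without the filter on low counts, 315 from the 4 libraries compared alone, 11 in limma on log2(FPKM + 1) and 57 on log2(FPKM + 0.1). Without 1 library it ran from 1 to 2717, and without mesalazine 1 and control 2 together it was 23, of which 14 were among the 90. The replicate block gave 132 calls and kept 87 of the 90. Deviations of libraries with the same replicate number correlated at -0.311 to 0.162. With 2 libraries a group, these values cannot show whether the numbers pair the animals. Against the DSS model 0 genes were called in the main setting and with the replicate block, 91 by DESeq2 and 104 without the filter. The causes were not tested. A fit without 1 library leaves 1 animal in its group, which is assumed to vary like the others. With 2 animals a group, a gene that was not called is not shown to have returned to its healthy level.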
